A study of Mus musculus with 9 samples.

Results

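The 26S proteasome genes of the mouse brain hemisphere were followed across sham surgery, stroke and stroke with celastrol. The members were the protein-coding rows of the deposited table whose symbols run from Psma to Psmg followed by a digit, without the 3 inducible subunits Psmb8, Psmb9 and Psmb10. They came to 47 of 55385 gene rows, on 16 chromosomes. By role they were 8 genes of the 20S alpha ring, 8 of the 20S beta ring, 6 ATPases and 11 non-ATPases of the 19S cap, 7 assembly chaperones, and 6 activators and inhibitors. The last, Psmc3ip, matches by its name alone: it encodes a partner of meiotic recombination proteins, and its values are given but belong to no role.

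Ribosomal RNA-depleted total RNA from male C57BL/6 mice of 8 to 10 weeks was sequenced in 9 libraries, 3 in each of 3 groups. Sham mice had the neck surgery but no occlusion. In tMCAO mice (transient middle cerebral artery occlusion, a model of ischemic stroke) a filament in the right carotid system kept the artery shut during 90 min, after which it was pulled out. Celastrol mice had the same occlusion and were given celastrol, a plant triterpenoid, intraperitoneally at 4.5 mg/kg as reperfusion began. All 3 groups underwent the neck surgery, and none of the samples here is sham with celastrol, so a response to the compound alone cannot be told apart from one that needs the stroke. Neither the delay between reperfusion and tissue collection nor the number of animals per library is stated in the sources used here, and p-values therefore refer to the spread among these libraries. In bulk RNA from a whole hemisphere, fewer cells of a type and less RNA per cell cannot be told apart.

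The proteasome is the barrel-shaped protease that degrades proteins tagged with ubiquitin. Its 20S core has rings of alpha subunits, which form the gate, around rings of beta subunits, of which Psmb5, Psmb6 and Psmb7 carry the active sites (chymotrypsin-like, caspase-like and trypsin-like). The 19S cap binds, unfolds and feeds the substrate. Its ATPases (Psmc genes) form the motor ring, and its non-ATPases (Psmd genes) hold ubiquitin receptors, a deubiquitinase and the scaffold. Alternative caps (Psme genes) open the core without ATP. Neurons depend on the complex for the turnover of synaptic and damaged proteins, and in many cells its genes are induced together, through the factor Nfe2l1, when its activity is inhibited. Celastrol is known in cultured cells as a proteasome inhibitor and inducer of heat shock genes; nothing in these data measures proteasome activity.

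The stretches upstream of 4 members are shown because these genes had among the smallest p-values below. Each also had 150 bases of a RefSeq promoter window outside every gene row of the table. For Psmc6 and Psmb3 the 36 and 35 bases next to the RefSeq start lie in a gene row and were left out. Each stretch is 150 bases, read 5′ to 3′ on the gene's strand from build GRCm38.p6 (RefSeq promoter table). They lie at chr12:55384072-55384221 (plus strand) for Psma6, a gate subunit of the alpha ring, at chr14:45329638-45329787 (plus strand) for the motor ATPase Psmc6, at chr11:97703249-97703398 (plus strand) for the structural beta subunit Psmb3, and at chr3:95042615-95042764 (minus strand) for the ubiquitin receptor Psmd4. Capitals mark matches, on either strand, to CCGGAAG (the core of ETS family sites), GGGCGG (the Sp1 GC box), CCAAT (the NF-Y box) and the core of interferon-stimulated response elements (GAAA and GAAA with 2 bases between them).
Psma6: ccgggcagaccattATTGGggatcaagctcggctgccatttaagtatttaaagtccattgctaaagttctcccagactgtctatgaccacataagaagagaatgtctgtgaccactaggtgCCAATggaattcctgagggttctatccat
Psmc6: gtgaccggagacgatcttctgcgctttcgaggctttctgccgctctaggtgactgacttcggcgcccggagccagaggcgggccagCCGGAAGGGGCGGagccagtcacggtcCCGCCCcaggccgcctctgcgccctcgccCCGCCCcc
Psmb3: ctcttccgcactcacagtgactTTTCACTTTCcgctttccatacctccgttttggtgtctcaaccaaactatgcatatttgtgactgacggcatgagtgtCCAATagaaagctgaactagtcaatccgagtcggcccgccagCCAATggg
Psmd4: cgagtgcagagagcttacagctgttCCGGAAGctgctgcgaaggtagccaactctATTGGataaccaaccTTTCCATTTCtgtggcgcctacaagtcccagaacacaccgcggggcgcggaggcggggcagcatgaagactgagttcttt
The 4 stretches do not share one layout. Psma6 and Psmb3 each hold 2 CCAAT boxes and no GC box here, and Psmd4 holds an ETS core with a CCAAT box. Another RefSeq window of Psma6, inside its gene row and not shown, holds an ETS core 132 bases before its start. The Psmc6 stretch holds an ETS core directly beside 1 of its 3 GC boxes. A further Psmc6 GC box, 32 bases before the RefSeq start, lies in the bases left out.

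Of the 47 members, 39 had at least 1 RefSeq promoter window (42 windows), and 14 motifs were searched on both strands in the 250 bases before the start. The motif CCGGAAG was in 13 of the 39 members (33.3%). It was in 7.83% of the 27025 genes with a promoter window and 14.4% of the 10731 tested protein-coding genes with a window. The core of nuclear respiratory factor 1 sites (GCGCA and GCGC with 1 base between them) was in 6 (15.4%, against 4.23% and 8.80%). The antioxidant and heat shock motifs occurred at shares near those of other genes. TGACNNNGC, the core of the antioxidant response element bound by Nfe2l1 and Nfe2l2, was in 5 members (12.8%, against 11.5% and 13.9%). The heat shock element core GAANNTTC was in 2 (5.13%, against 7.73% and 6.03%), Psmb5 and Psmf1. The interferon-stimulated response element core was in 3 members (7.69%, against 3.46% and 2.95%), namely Psmb3, Psmd4 and Psmd9. CCAAT was in 14 (35.9%, against 37.5% and 40.0%) and GGGCGG in 21 (53.8%, against 35.4% and 63.7%). The other motifs were GATTGG, which contains the CCAAT box on its other strand, in 7 members, TGACGT in 4 with its full form TGACGTCA in 0, CACGTG in 3, the ZNF143 type site in 2, TTCNNNGAA in 1 and the ZBTB33 type site in 1. Shares of all genes with a window for these 7 ranged from 0.448% to 16.6%. A match describes the letters of the window and is not a bound site.

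Libraries held 60392960 to 75158625 estimated counts. In the first principal component (31.0% of the variance) sham libraries lay from −58.7 to −25.8, tMCAO libraries from 16.99 to 58.1, and celastrol replicates 1 and 3 at 44.1 and 20.3. Celastrol replicate 2 lay at −23.2, on the sham side. Counts, and estimates of at least 0.1 in size on the log2 scale, that moved by over 1.5 times without it are given both ways. This was checked for the genes chosen by the rule given under the processing, and not for Psme2 or Psmd4 in celastrol against tMCAO. Reactive astrocyte markers were present in every library (summed CPM of 159 to 333 in sham, 1163 to 2330 in tMCAO, 639 to 2001 with celastrol), where CPM is the count scaled to a common library total after TMM scaling, which allows for the composition of the RNA. Neuronal markers, the defining genes of the tissue, were abundant throughout (6829 to 7530, 5374 to 6288 and 5654 to 8685).

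All ordinary subunits were expressed, at levels that differed by role. In FPKM (fragment counts divided by transcript length and library size, so that genes of different length can be compared), the 31 subunits of the 20S core and 19S cap that were tested ranged in mean level from 9.36 for Psmd11, a lid subunit, to 98.5 for Psmc5, an ATPase, a ratio of 10.5. Role medians were 24.5 FPKM in the alpha ring, 29.3 in the beta ring, 39.9 in the ATPases and 23.6 in the non-ATPases. Psma6 was the most abundant gene of the alpha ring (68.9 FPKM), Psmb5 of the beta ring (52.6) and Psmd2, the scaffold subunit that docks ubiquitin receptors, of the non-ATPases (47.3). Assembly chaperones, which act on the complex while it forms and are not part of it, were lower, from 2.30 FPKM for Psmg3 to 8.60 for Psmd10, with a median of 6.65. Among the activators, Psme3, the nuclear homomeric cap, stood at 39.7 FPKM and the others near their median of 7.53, down to 5.95 for Psmf1, which encodes an inhibitor of the core.

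Psma8 and Psmb11 are the tissue-restricted versions of an alpha and a beta subunit, of testis and thymus. They stood at 0.109 and 0.0467 FPKM in the mean of the 9 libraries and did not reach the minimum of 0.5 FPKM in 3 libraries. Psma8 had from 0 to 0.811 CPM and Psmb11 from 0.105 to 0.726 CPM in single libraries, with no group apart. The other 45 members were at or above that minimum in every library and were tested, with 90 to 17074 counts per member and library. Psmc3ip, at 0.977 FPKM, was the lowest of them.

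**Figure D1:**
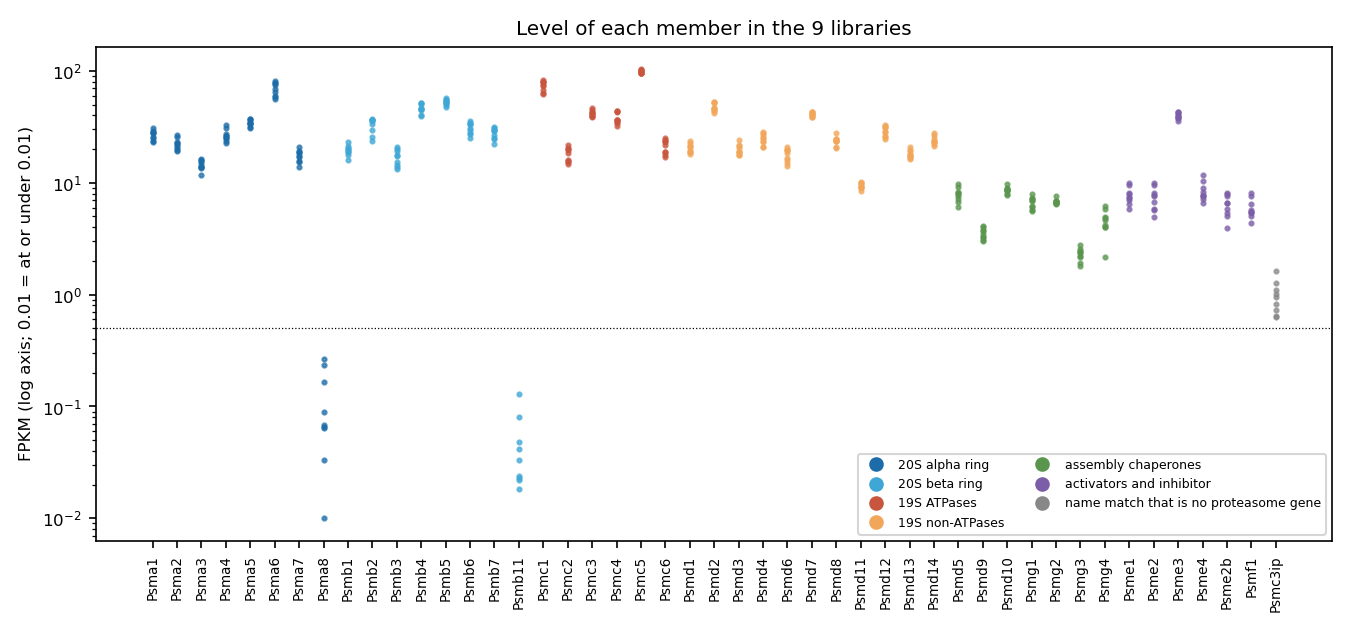
Level of each of the 47 members in FPKM (log axis) by gene, coloured by role; every point is 1 of the 9 libraries, and the dotted line is the minimum of 0.5 FPKM used for testing. Core and cap subunits lie mostly between 10 and 100 FPKM, assembly chaperones below 10, and Psma8 and Psmb11 below the line; a value at or under 0.01 is drawn at 0.01.

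Replicates of a group resembled each other closely in these genes. The SD over the 3 sham libraries was 5.17% of the mean in the median member, against 14.2% in the median of the 16982 genes tested. It was 6.55% in tMCAO (16.97% over all genes) and 6.45% with celastrol (17.7%). The tightest member in sham was Psme3 (0.416%), and the loosest was Psme2b (33.2%), a retrocopy of Psme2.

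Some rows share sequence with others, so their counts depend on how reads were assigned. Of the members and the 3 inducible subunits, 12 of 50 had a row elsewhere in the genome with a transcript at least 95% identical over at least 150 bases. Psma3 has the processed pseudogene Gm13835, identical over 685 bases, which stood at 29.6 FPKM against 14.4 for Psma3. Psme2 and Psme2b are alike over 794 bases, and Psme2b stood at 85.9% of the level of Psme2. Copies summed to 41.8% of the gene's level for Psmb3, 29.4% for Psma5, 15.3% for Psmd11 and 7.63% for Psma4. Values of these genes are uncertain for that reason. The strand setting of the counting is unstated in the sources used here, so members that overlap an expressed gene on the other strand are uncertain too. Among them are Psmc3 with Slc39a13, Psmb7 with Nek6, Psmd13 with Sirt3, Psme1 with Emc9 and Psmc3ip with Mlx. On the same strand, Psmd13 overlaps the processed pseudogene Gm15542 (18.1 and 26.1 FPKM) and Psma2 overlaps AW209491 (22.4 and 6.33 FPKM). A strand setting does not separate such rows, and these values are uncertain as well.

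Comparing tMCAO with sham addresses the effect of the occlusion and reperfusion. Most proteasome genes lay slightly higher after tMCAO, and none passed the adjusted test. Of 45 members, 36 had a positive log2 fold change (80.0%, against 50.9% of all genes tested), with a median of 0.128, or 9.27%, against 0.007 in all genes. By edgeR's quasi-likelihood test 0 members passed an adjusted p of 0.05 (0.0% of all genes did). At an unadjusted p under 0.05, 6 members were higher (8.56% of all genes were, 14.9% in either direction) and 0 lower (6.36%). When sham replicate 3 was left out the 6 became 0 (5.87% of all genes were then higher), and leaving out sham replicate 2 made it 1 (5.68%). It became 2 on removal of tMCAO replicate 1 (5.46%) or 3 (7.80%), and 3 on removal of celastrol replicate 3 (8.00%). DESeq2 and limma on log2(FPKM + 0.5) also called 0 members. Unlike edgeR, DESeq2 did call genes outside the members, among them Irgm1 and Nfe2l2 (DESeq2 adjusted p 0.00266 and 0.00761). The share of all genes that DESeq2 called is not given here. At an unadjusted p under 0.05 DESeq2 and limma had 9 and 14 members higher, against 9.65% and 11.5% of all genes. Under limma the median of all genes was itself 0.087. In 16 members (35.6%) every tMCAO library was above every sham library, which held for 12.4% of all genes, and in 1 member, Psmd7, every tMCAO library was below (2.22%, against 11.1%). These counts describe the list and are not a test of it.

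The size of this difference depended on the scaling. With library totals alone in place of TMM, the median of all genes moved to 0.108 and that of the members to 0.233, so that members stood above all genes by a similar amount, and 29 members were higher without overlap (64.4%, against 19.3% of all genes) and 0 lower (5.95% of all genes).

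In the alpha ring all 7 tested genes were positive (median 0.21), and in 5 the groups did not overlap. Psma6 had 92.0, 82.7 and 87.3 CPM in sham and 110.2, 103 and 103 CPM in tMCAO. Every tMCAO library was above every sham library, and the means were 87.3 ± 4.63 and 106 ± 4.07 CPM (SD, n = 3 each). Psma6 thus had a log2 fold change of 0.27 ± 0.10 (SE; edgeR adjusted p 0.280). Psma2 went from 89.6, 89.4 and 83.7 CPM in sham to 109, 93.3 and 102 CPM in tMCAO, also without overlap (0.21 ± 0.09, adjusted p 0.340). Psma7 had 60.7, 56.8 and 50.4 CPM in sham and 70.7, 64.3 and 60.7 CPM in tMCAO, where the lowest tMCAO library only just cleared the highest sham library (0.22 ± 0.11, adjusted p 0.385). Psma4 had 64.0, 74.1 and 64.1 CPM against 86.2, 69.2 and 78.2 CPM, and its groups overlapped (0.21 ± 0.11, adjusted p 0.422; 0.129 without tMCAO replicate 1). Psma5 was the flattest of the ring, with means of 50.9 ± 2.70 and 52.1 ± 1.27 CPM (SD, n = 3 each). The ring shared its direction in every gene while single genes differed in size, from 0.04 for Psma5 to 0.27 for Psma6.

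In the beta ring the estimates of the active-site genes had both signs. Psmb6, the caspase-like subunit, had 63.2, 61.9 and 60.7 CPM in sham and 74.1, 70.2 and 69.0 CPM in tMCAO, without overlap (log2 fold change 0.20 ± 0.10, edgeR adjusted p 0.410). Psmb7, the trypsin-like subunit, had 105, 103 and 99.0 CPM in sham and 116, 110.5 and 115 CPM in tMCAO, again without overlap (0.15 ± 0.10, adjusted p 0.523). Psmb5, the chymotrypsin-like subunit and the site that most proteasome inhibitors bind, had 55.9, 57.2 and 54.8 CPM in sham and 47.1, 54.9 and 55.0 CPM in tMCAO. It was the only beta gene with a lower mean (−0.10 ± 0.10, adjusted p 0.691), and without tMCAO replicate 1 it was −0.027; with library totals alone its fold change was 0.005. The difference between Psmb5 and the other active-site genes was not tested. Among the structural subunits Psmb3 had the largest difference, from 40.1, 39.9 and 36.4 CPM to 51.1, 44.9 and 47.2 CPM (0.30 ± 0.13, adjusted p 0.323). With its 3 pseudogene copies added it was 0.248.

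The ATPases of the motor ring were of both kinds. Psmc2 had 91.8, 94.1 and 91.8 CPM in sham and 111, 109.7 and 117 CPM in tMCAO. The sham libraries lay within a few CPM of each other and all tMCAO libraries well above them, with means of 92.5 ± 1.31 and 113 ± 4.07 CPM (SD, n = 3 each). Its log2 fold change of 0.28 ± 0.10 had the smallest p of all members (unadjusted 0.0220, edgeR adjusted 0.271). Psmc6 went from 75.1, 78.1 and 72.8 CPM to 89.8, 91.3 and 90.1 CPM (0.26 ± 0.11, adjusted p 0.326), without overlap. Psmc5, the most abundant ATPase, had 162, 167 and 156 CPM in sham and 147, 159.9 and 149 CPM in tMCAO (−0.09 ± 0.08, adjusted p 0.651), and its fold change was 0.011 with library totals alone.

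The 11 non-ATPases had a median of 0.08, and 9 were positive. Psmd6, a lid subunit, had 53.0, 50.2 and 52.8 CPM in sham and 65.3, 57.9 and 58.8 CPM in tMCAO, without overlap (log2 fold change 0.22 ± 0.12, edgeR adjusted p 0.424). Psmd1, a large scaffold subunit, had 159.7, 163 and 160.4 CPM in sham and 192, 165 and 175 CPM in tMCAO, without overlap (0.14 ± 0.09, adjusted p 0.503). Psmd7, the partner of the deubiquitinase, had 106, 104 and 114 CPM in sham and 102, 100.5 and 103 CPM in tMCAO, lower in every library (−0.08 ± 0.09, adjusted p 0.715). Psmd8 had means of 85.2 ± 2.92 and 79.9 ± 11.1 CPM (SD, n = 3 each), with tMCAO libraries at 79.2, 69.2 and 91.4 CPM that lay on both sides of sham (log2 fold change −0.09 ± 0.12, adjusted p 0.751, and 0.011 with library totals alone). Psmd14, the deubiquitinase, had means of 76.0 ± 2.84 and 80.5 ± 5.80 CPM, a difference smaller than the spread of the tMCAO libraries.

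Of the assembly chaperones, those of the ATPase ring included Psmd5 and Psmd9. Psmd5 had 63.5, 52.8 and 61.5 CPM in sham and 78.3, 73.8 and 62.8 CPM in tMCAO, with 1 tMCAO library inside the sham range (log2 fold change 0.27 ± 0.12, edgeR adjusted p 0.335). Psmd9 had 28.8, 26.0 and 26.6 CPM against 32.3, 30.6 and 31.6 CPM, without overlap (0.21 ± 0.10, adjusted p 0.359). The pair Psmg1 and Psmg2 together build the alpha ring. Psmg1 had 9.48, 9.04 and 9.05 CPM in sham and 10.7, 11.0 and 11.5 CPM in tMCAO, without overlap (0.27 ± 0.13, adjusted p 0.371). Psmg2, its partner in the same dimer, had means of 13.6 ± 0.554 and 13.0 ± 0.236 CPM (SD, n = 3 each; −0.07 ± 0.12, adjusted p 0.833, and 0.035 with library totals alone). Psmd10 stood at 14.4 ± 0.884 and 14.5 ± 1.44 CPM.

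Psme1 and Psme2 encode the subunits of the interferon-inducible cap and are neighbours on chromosome 14 (Psme1 from 55578123 to 55581528, Psme2 from 55587441 to 55591113, 5912 bases apart). Psme2 had 13.5, 12.3 and 10.5 CPM in sham and 15.8, 15.5 and 18.9 CPM in tMCAO, without overlap. Its log2 fold change, 0.47 ± 0.18, was the largest of the 45 members (edgeR adjusted p 0.303), and it was 0.298 when Psme2 and its copy Psme2b were added together. Psme2b alone had 6.28, 3.95 and 7.96 CPM in sham and 4.95, 4.69 and 7.13 CPM in tMCAO (−0.12 ± 0.30, adjusted p 0.887). Psme1 had 20.3, 19.7 and 19.4 CPM in sham and 23.3, 19.7 and 23.5 CPM in tMCAO, where 1 library stayed at the sham level (0.16 ± 0.12, adjusted p 0.547). Psme3 did not stand apart, with means of 136 ± 0.565 and 132 ± 7.63 CPM (SD, n = 3 each). Psmf1 had 39.8, 41.9 and 33.5 CPM against 58.1, 41.4 and 44.3 CPM, with the highest value in tMCAO replicate 1 (0.32 ± 0.18, adjusted p 0.444). The estimate for Psmf1 without that library is not given here. Psmc3ip went from 2.00 ± 0.384 to 2.19 ± 0.957 CPM (SD, n = 3 each; adjusted p 0.906).

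**Figure D2:**
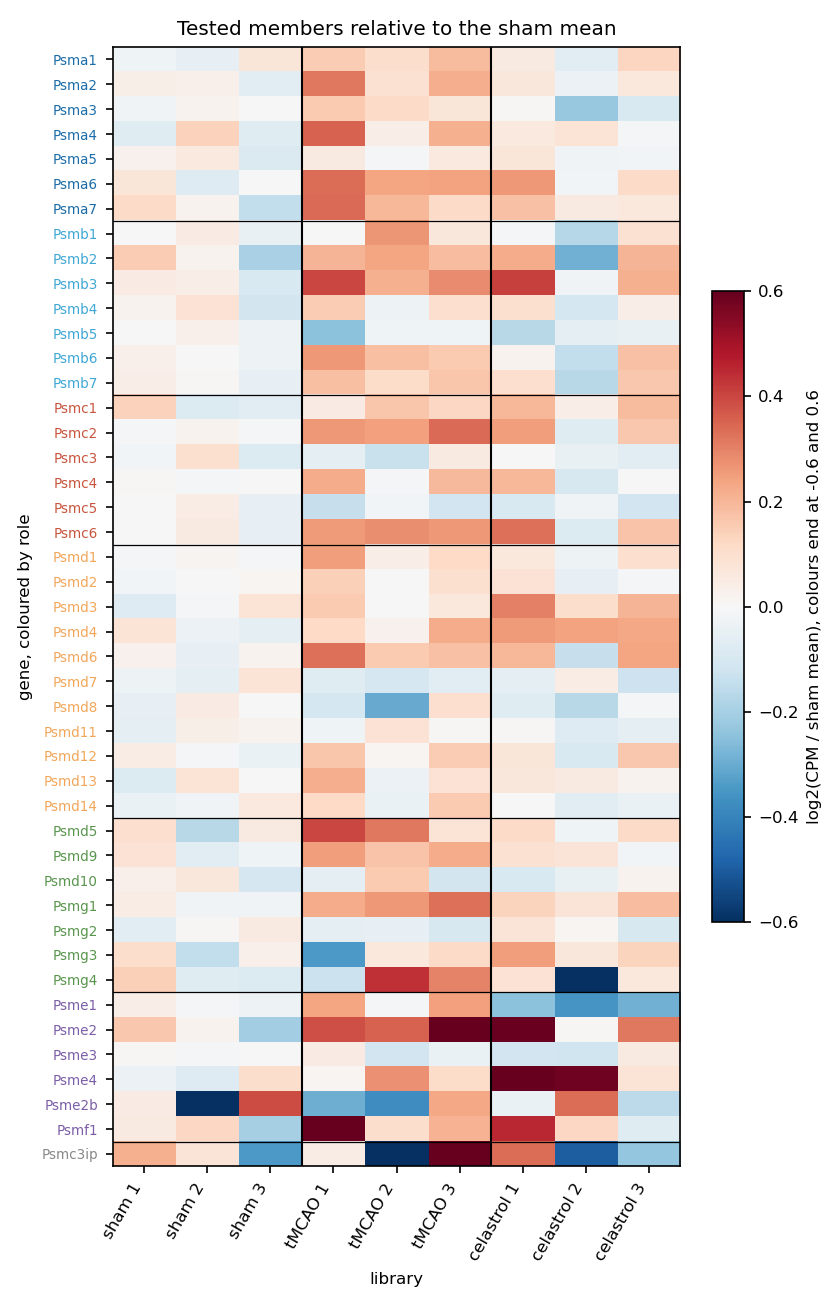
Level of the 45 tested members (rows, coloured by role) in the 9 libraries (columns), as the log2 of CPM over the sham mean; red is above and blue below, and colours end at −0.6 and 0.6. The tMCAO columns are mostly red in the 20S rows, and the celastrol replicate 2 column is paler or bluer than the other celastrol columns.

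Summed over the 31 tested core and cap subunits, sham libraries had 2799, 2810.4 and 2739 CPM and tMCAO libraries 3058, 2900 and 3026 CPM. All tMCAO sums lay above all sham sums. The beta ring sum was nearly the same in the tMCAO libraries (547, 547 and 545 CPM), against 511, 513 and 476 CPM in sham. Taken library by library, the median log2 difference of the 45 members from the sham mean was 0.16, 0.09 and 0.15 in tMCAO replicates 1, 2 and 3, and 0.03, 0.01 and −0.03 in the sham replicates. Of the 45 members, 17 had their highest value of all 9 libraries in tMCAO replicate 1. Without tMCAO replicate 1 the count of non-overlapping higher members was 19 (42.2%, against 16.0% of all genes). Over all leave-outs of 1 library of these groups it ran from 17 without tMCAO replicate 3 (37.8%, against 19.7%) to 26 without tMCAO replicate 2 (57.8%, against 18.6%).

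Cell type markers differed in the same comparison. Of the 8 neuronal genes 7 had negative estimates (median −0.29) and 0 had an unadjusted p under 0.05, while all 6 reactive astrocyte genes were higher at that threshold (median 3.63). So were all 6 tested genes of macrophages and activated microglia (median 3.60; 22.6 to 47.8 CPM summed in sham and 104 to 512 in tMCAO; Ccr2 and Msr1 were at 0 in some library). Of 5 tested neutrophil genes all 5 were positive (median 3.14), 3 of them at that threshold, with sums of 7.29 to 8.23 and 20.1 to 22.6 CPM, and 7 of the 9 listed were at 0 in some library. Regional markers were uneven among the libraries of a group. Summed choroid plexus markers ran from 9.82 to 46.8 CPM in sham, 13.2 to 486 in tMCAO and 7.87 to 1790 with celastrol. Summed thalamus markers ran from 96.4 to 258, 118 to 659 and 82.0 to 425 CPM in the same order. The part of these shifts and regional differences in the proteasome values was not tested.

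Celastrol against tMCAO addresses the effect of the compound in the injured hemisphere. Most members lay slightly lower with celastrol than with tMCAO alone, and again none passed the adjusted test. Of 45 members, 12 had a positive log2 fold change (26.7%, against 49.3% of all genes), with a median of −0.10 or −6.72%, against −0.004 in all genes. By edgeR's test 0 members passed an adjusted p of 0.05 (0.0% of all genes), 0 were higher at an unadjusted p under 0.05 (2.25% of all genes were) and 2 were lower (1.86%; 4.11% in either direction), Psme1 and Psma3. Only 1 was lower without any 1 of the sham libraries, tMCAO replicate 1 or 3 or celastrol replicate 2 (1.16% to 2.27% of all genes were). Without celastrol replicate 3, 1 member was higher (3.16% of all genes were). The median was −0.062 without tMCAO replicate 1. DESeq2 and limma on log2(FPKM + 0.5) also called 0 after adjustment and 2 lower without it (2.67% and 2.77% of all genes were lower without it). Groups did not overlap in 1 higher member, Psmd4 (2.22%, against 3.73% of all genes), and in 5 lower members (11.1%, against 4.13%), Psma2, Psma3, Psmd9, Psmg1 and Psme1. Without celastrol replicate 1 or 3 the lower members without overlap were 13 and 9, against 10.5% and 9.69% of all genes. Without tMCAO replicate 1, 2 or 3 they were 8, 14 and 8, against 7.60%, 9.91% and 9.77%. This comparison shares its tMCAO libraries with that of tMCAO against sham.

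Psme1 had the smallest p. It stood at 23.3, 19.7 and 23.5 CPM in tMCAO and at 16.7, 15.5 and 16.2 CPM with celastrol. All celastrol libraries were below all tMCAO libraries and also below the sham libraries, with means of 22.2 ± 2.16 and 16.1 ± 0.631 CPM (SD, n = 3 each). Its log2 fold change was −0.46 ± 0.12 (−27.2%), and the edgeR p was 0.00385 unadjusted and 0.976 adjusted. Its neighbour and binding partner Psme2 had 18.2, 12.1 and 15.1 CPM with celastrol, within reach of its 15.8, 15.5 and 18.9 CPM in tMCAO (−0.14 ± 0.18, adjusted p 0.976). The lowest of these Psme2 values was that of celastrol replicate 2, and the estimate without that library is not given here. Whether Psme1 and Psme2 differ in their response was not tested.

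Psme4, which encodes the large monomeric cap linked to the breakdown of acetylated histones, lay the other way. It had 70.3, 84.2 and 75.1 CPM in tMCAO and 107, 104 and 73.8 CPM with celastrol, so that 2 celastrol libraries were high and replicate 3 was at the tMCAO level (log2 fold change 0.31 ± 0.15, edgeR adjusted p 0.976). Celastrol replicate 2, which lies near sham on the first principal component, was 1 of the 2 high libraries, and without it the estimate for Psme4 was 0.237.

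In the core, Psma3 had 70.6, 68.5 and 66.6 CPM in tMCAO and 63.7, 54.1 and 59.5 CPM with celastrol, without overlap (log2 fold change −0.21 ± 0.09, edgeR adjusted p 0.976), and −0.207 with its 4 copies added. Psma2 had 109, 93.3 and 102 CPM against 91.8, 85.4 and 91.5 CPM, without overlap (−0.18 ± 0.09). Psma6 had 110.2, 103 and 103 CPM against 105, 86.3 and 94.7 CPM, with celastrol replicate 1 inside the tMCAO range (−0.15 ± 0.10). Psmb6 had 74.1, 70.2 and 69.0 CPM against 62.9, 55.9 and 70.0 CPM (−0.17 ± 0.10), and Psmb5 had means of 52.3 ± 4.54 and 52.6 ± 2.44 CPM (SD, n = 3 each). All 7 alpha genes and 6 of 7 beta genes were negative. Without celastrol replicate 2 the estimates were −0.082 for Psma6 and −0.097 for Psmb6. Psma4, with 86.2, 69.2 and 78.2 CPM in tMCAO, had 70.2, 71.3 and 67.0 CPM with celastrol (−0.16 ± 0.11). Psma5 was again the flattest of the ring, at 52.9, 50.7 and 52.9 CPM against 53.4, 50.2 and 50.2 CPM (−0.02 ± 0.09).

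The cap split. Among the ATPases 3 were positive and 3 negative, led by Psmc2, with 111, 109.7 and 117 CPM in tMCAO and 110.1, 88.0 and 104 CPM with celastrol (log2 fold change −0.16 ± 0.10, edgeR adjusted p 0.976; −0.077 without celastrol replicate 2). Psmc1 had the largest positive estimate of the ring, with 156, 169.8 and 165 CPM against 173, 156 and 172 CPM (0.03 ± 0.10). All 3 positive ATPase estimates were smaller than their SE. Of the non-ATPases, 4 were positive, with Psmd3 at 117, 105 and 109.9 CPM in tMCAO and 129.6, 113 and 121 CPM with celastrol (0.13 ± 0.10), and Psmd4 at 78.0, 73.0 and 83.7 CPM in tMCAO and 85.7, 84.7 and 84.3 CPM with celastrol (0.12 ± 0.09). Psmd14 had means of 80.5 ± 5.80 and 74.1 ± 1.64 CPM (SD, n = 3 each; −0.12 ± 0.09).

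Among the chaperones, Psmd5 had 78.3, 73.8 and 62.8 CPM in tMCAO and 64.3, 58.2 and 64.1 CPM with celastrol (log2 fold change −0.20 ± 0.12, edgeR adjusted p 0.976; −0.135 without tMCAO replicate 1). Psmd9 had 32.3, 30.6 and 31.6 CPM against 28.9, 28.6 and 26.8 CPM, without overlap (−0.16 ± 0.10). Psmg4 had the largest negative estimate of the role, −0.42 ± 0.32, with 2.57, 3.81 and 3.45 CPM in tMCAO and, with celastrol, 1.45 CPM in replicate 2 against 2.98 and 2.93 CPM in the others. Without that replicate the estimate for Psmg4 was −0.149. Psmg3 had the largest positive one, 0.20 ± 0.18, with tMCAO libraries at 5.77, 7.65 and 7.95 CPM and celastrol libraries at 8.73, 7.70 and 8.04 CPM. Psmc3ip, of no role, had 2.19 ± 0.957 CPM (SD, n = 3) in tMCAO against 2.52, 1.42 and 1.70 CPM (−0.22 ± 0.38), and its estimate was −0.051 without celastrol replicate 2 and 0.166 without tMCAO replicate 3.

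Celastrol replicate 2 had the lowest value of its group in 32 of the 45 members, and the lowest of all 9 libraries in 18. Its median log2 difference from the sham mean over the members was −0.04, against 0.09 and 0.06 in celastrol replicates 1 and 3. That replicate also had the highest summed neuronal markers (8685 CPM) and the lowest reactive astrocyte markers of the celastrol libraries (639 CPM); their part in the result was not tested. Without it, the median of the members in celastrol against tMCAO was −0.034 (13 positive, against a median of −0.006 in all genes). Then 5 members were lower without overlap (11.1%, against 7.82% of all genes). The higher members without overlap were then 4 (8.89%, against 7.52%), where all libraries together gave 1. Erythrocyte markers, which reflect residual blood, were also lower with celastrol than in tMCAO (68.2 to 92.9 against 106 to 555 CPM summed), with 5 of 5 genes lower at an unadjusted p under 0.05, and their part was not tested either.

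**Figure D3:**
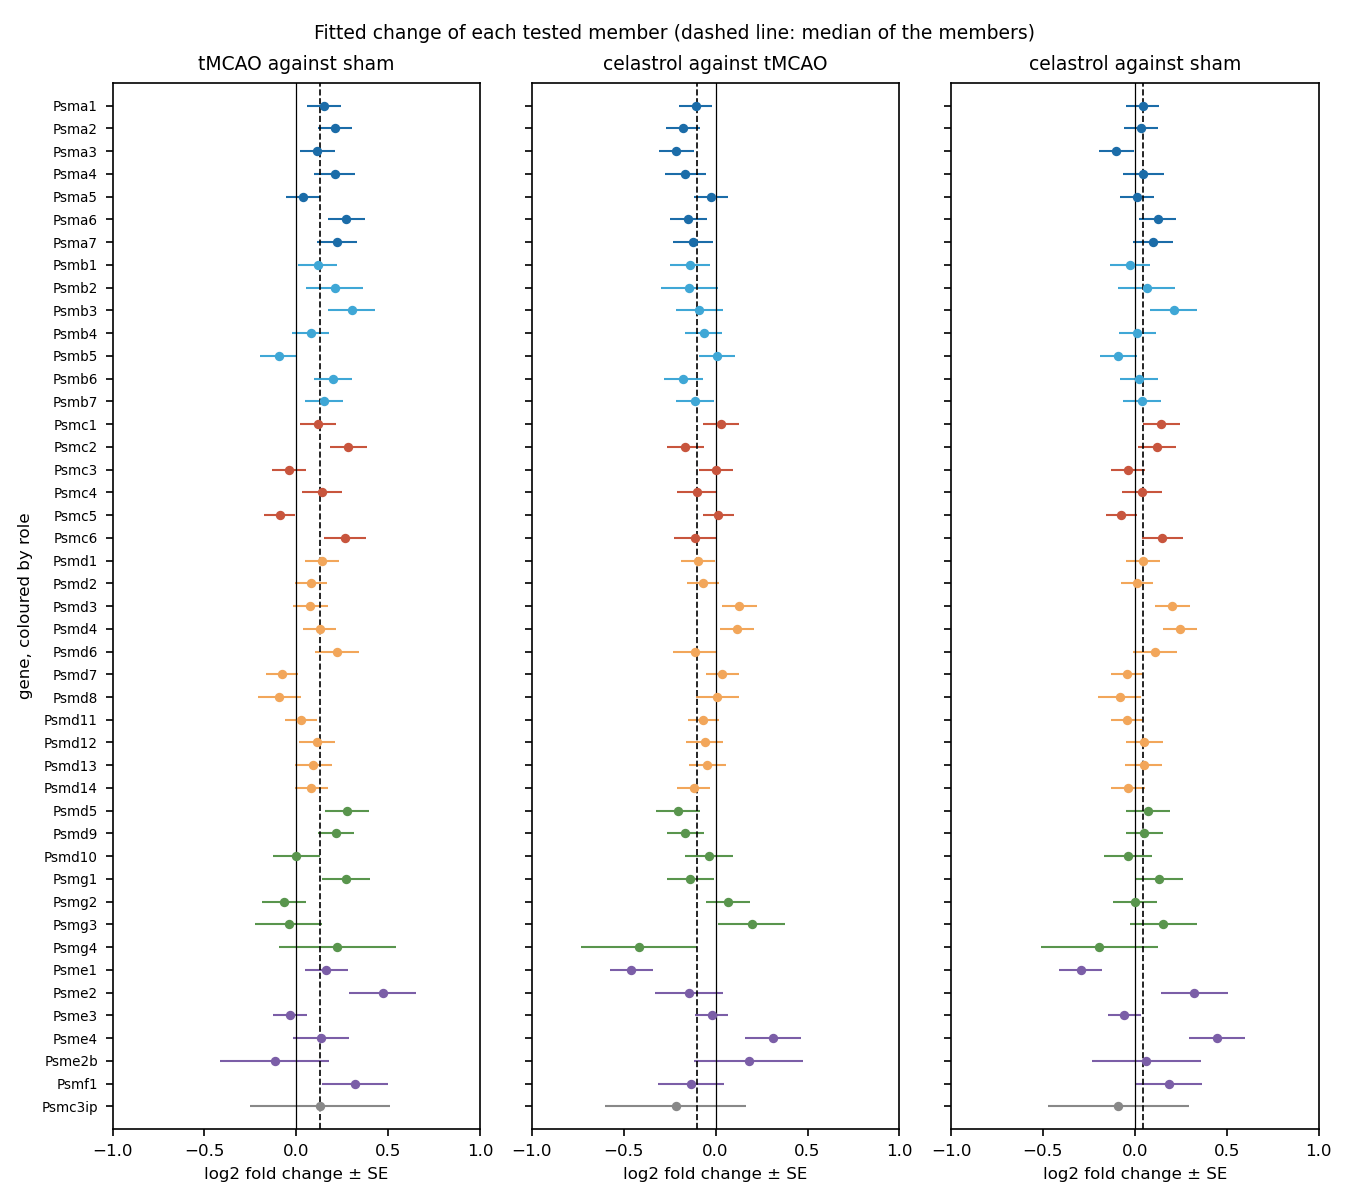
Fitted log2 fold change with its SE for each of the 45 tested members (rows, coloured by role) in the 3 comparisons (panels); the dashed line is the members' median, at 0.13, −0.10 and 0.04. The points lie mostly right of 0 in the first panel and left of it in the second, with Psme1 at −0.46 and Psme4 at 0.31 in the celastrol against tMCAO panel.

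Celastrol was also set against sham, which addresses how far the treated hemisphere stood from uninjured tissue. Members lay close to sham: 31 of 45 had a positive log2 fold change (68.9%, against 50.4% of all genes), with a median of 0.04, or 2.95%, against 0.003 in all genes. By edgeR's test 0 members passed an adjusted p of 0.05, as did 1 of 16982 genes (0.00589%), and DESeq2 and limma on log2(FPKM + 0.5) called 0 members. At an unadjusted p under 0.05, 2 members were higher (5.69% of all genes), Psme4 and Psmd4, and 1 was lower (2.81%; 8.51% in either direction), Psme1. The 2 became 0 when either sham replicate 2 or celastrol replicate 1 was left out (4.03% and 3.37% of all genes were then higher). The higher count became 1 when the left-out library was replicate 3 of sham or of celastrol (4.14% and 5.61%). With celastrol replicate 2 removed it was 5 (7.48% of all genes). The 1 lower became 0 without any 1 of the sham libraries or celastrol replicate 2 or 3 (1.63% to 5.0% of all genes were then lower). Groups did not overlap in 3 higher members (6.67%, against 7.89%), Psmd3, Psmd4 and Psmg1, and in 2 lower ones (4.44%, against 5.54%), Psmb5 and Psme1. Without celastrol replicate 2 the higher count was 17 (37.8%, against 16.8% of all genes) and the median 0.077; the median was 0.020 without celastrol replicate 1 and 0.016 without replicate 3, and the higher count 7 without sham replicate 1 and 5 without sham replicate 2 (14.7% and 11.5% of all genes). These libraries are the same as in the 2 comparisons above.

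Cell type markers differed between celastrol and sham as well. At an unadjusted p under 0.05, all 6 reactive astrocyte genes (median 3.14), 5 of 6 tested genes of macrophages and activated microglia (median 3.54), 4 of 5 tested neutrophil genes (median 4.16), and 4 of 5 endothelial genes (median 0.52) were higher. All 5 erythrocyte genes (median −1.69) and 4 of 8 striatal genes (median −1.77) were lower at that threshold. Summed levels of the macrophage list were 563, 56.1 and 228 CPM in celastrol replicates 1, 2 and 3, against 22.6 to 47.8 in sham, and those of the striatal list were 165 to 361 against 206 to 1221 CPM. Their part in the proteasome values was not tested.

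Psmd4 was the most even of the members with celastrol. It had 76.0, 70.0 and 69.1 CPM in sham and 85.7, 84.7 and 84.3 CPM with celastrol, with an SD of 0.706 CPM over the celastrol libraries (0.832% of their mean). Replicate 2 was as high as the others here. Its log2 fold change was 0.24 ± 0.09 (edgeR adjusted p 0.491).

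Psme4 had 68.0, 66.0 and 75.0 CPM in sham and 107, 104 and 73.8 CPM with celastrol, a log2 fold change of 0.45 ± 0.15 with an unadjusted p of 0.0169 and an edgeR adjusted p of 0.440. It was the largest positive estimate of the 45 members in this comparison, although celastrol replicate 3 lay within the sham range; without celastrol replicate 2 the estimate for Psme4 was 0.372. Psme1, at 19.8 ± 0.492 CPM in sham and 16.1 ± 0.631 CPM with celastrol (SD, n = 3 each), was the largest negative one (−0.29 ± 0.12, adjusted p 0.538), and its groups did not overlap.

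Psmd3, a lid scaffold subunit, had 99.6, 104 and 111 CPM in sham and 129.6, 113 and 121 CPM with celastrol, without overlap (log2 fold change 0.20 ± 0.10, edgeR adjusted p 0.608). Psme2 had 13.5, 12.3 and 10.5 CPM against 18.2, 12.1 and 15.1 CPM, with replicate 2 at the sham level (0.32 ± 0.18, adjusted p 0.693; 0.165 without celastrol replicate 1). Psmb3 (0.21 ± 0.13), Psmc6 (0.15 ± 0.11), Psma6 (0.12 ± 0.10) and Psmc2 (0.12 ± 0.10) had positive estimates, with adjusted p-values of 0.715, 0.785, 0.803 and 0.820; the estimate for Psmb3 was 0.097 without celastrol replicate 1, and those for Psmc6, Psma6 and Psmc2 were 0.253, 0.190 and 0.207 without replicate 2. Psmb5 had 49.8, 53.7 and 54.3 CPM with celastrol against 55.9, 57.2 and 54.8 CPM in sham, lower in every library (−0.09 ± 0.10, adjusted p 0.865), while the groups overlapped with library totals alone.

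The remaining genes at the ends of their roles all overlapped sham. Psma3, the lowest of the alpha ring, had 62.4, 64.2 and 63.4 CPM in sham and 63.7, 54.1 and 59.5 CPM with celastrol (log2 fold change −0.10 ± 0.09, edgeR adjusted p 0.836; −0.041 without celastrol replicate 2). Among the ATPases, Psmc1 had 166, 143 and 144 CPM against 173, 156 and 172 CPM (0.14 ± 0.10, adjusted p 0.757), and Psmc5 had 162, 167 and 156 CPM against 152, 159 and 149 CPM (−0.07 ± 0.08, adjusted p 0.865). Psmd8 had 82.3, 88.2 and 85.2 CPM against 80.9, 75.9 and 84.5 CPM (−0.08 ± 0.12, adjusted p 0.894). These differences were of the size of the spread among libraries. Of the chaperones, Psmg3 had 7.89, 6.62 and 7.49 CPM against 8.73, 7.70 and 8.04 CPM (0.15 ± 0.18, adjusted p 0.871). Psmg4 had 3.10, 2.67 and 2.65 CPM against 2.98, 1.45 and 2.93 CPM (−0.19 ± 0.32, adjusted p 0.906), and its estimate turned to 0.074 without celastrol replicate 2. Psmf1 had 52.6, 41.9 and 36.5 CPM with celastrol, both above and within its sham values (0.19 ± 0.18, adjusted p 0.839). Psmc3ip had an estimate of −0.09 ± 0.38 (adjusted p 0.970).

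**Figure D4:**
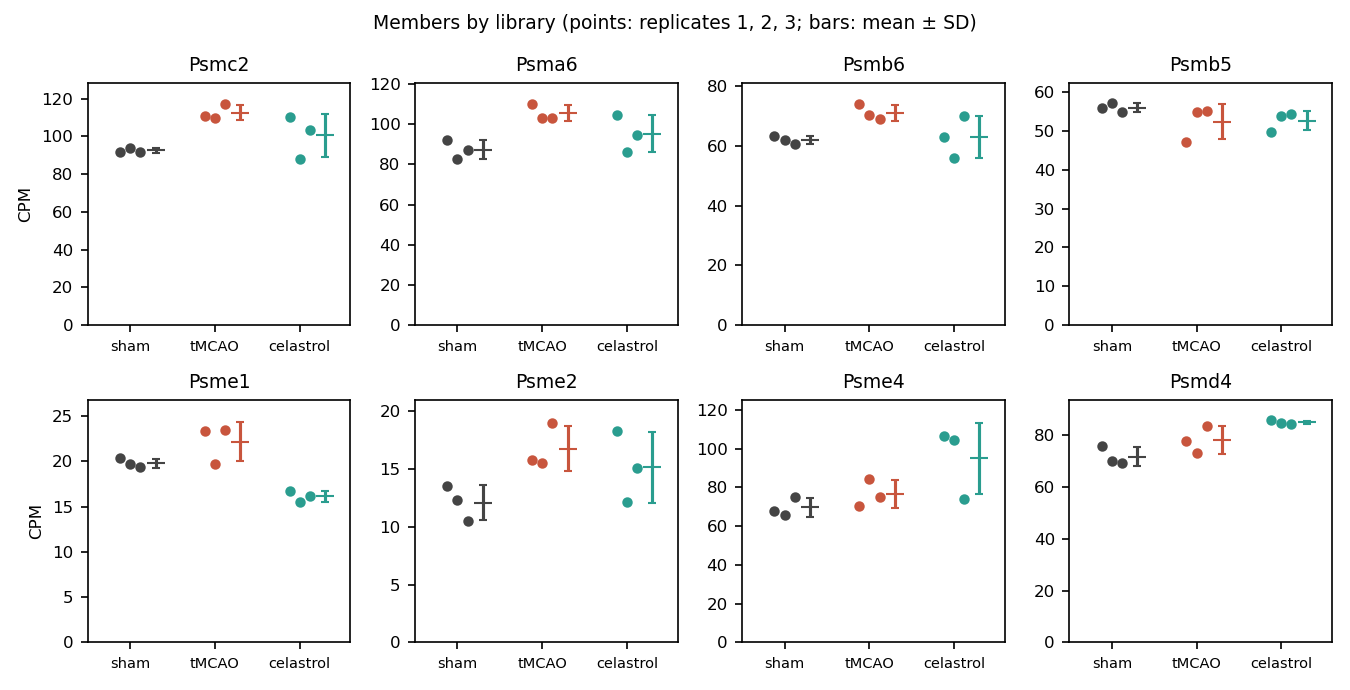
CPM of 8 members (panels) in the libraries of each group; points are replicates 1, 2 and 3 from left to right, the bar beside them is the mean ± SD, and every axis starts at 0. Psmc2, Psma6 and Psmb6 are higher in all tMCAO than in all sham libraries, Psme1 is lowest in the celastrol libraries, and 2 of 3 Psme4 values with celastrol exceed 100 CPM.

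The inducible subunits replace the active-site subunits in immune cells and under interferon: Psmb8 takes the place of Psmb5, Psmb9 that of Psmb6 and Psmb10 that of Psmb7. They are no members and are given as ratios to them, in percent of FPKM. Psmb8 stood at 1.35%, 0.892% and 1.31% of Psmb5 in sham, 2.69%, 1.74% and 3.54% in tMCAO, and 2.39%, 1.14% and 1.38% with celastrol. All tMCAO ratios lay above all sham ratios, with means of 1.19% ± 0.254 and 2.65% ± 0.901 (SD, n = 3 each), a log2 difference of 1.13. The exact permutation test gave a two-sided p of 0.1, the smallest that 3 libraries against 3 allow, and 0.3 when adjusted over the 9 ratio tests. Psmb8 itself had a log2 fold change of 1.06 ± 0.36 in tMCAO against sham (edgeR adjusted p 0.241) and −0.70 ± 0.35 in celastrol against tMCAO (adjusted p 0.976; −0.376 without tMCAO replicate 3). In celastrol against sham the Psmb8 estimate was 0.36 ± 0.35 (adjusted p 0.842), 0.036 without celastrol replicate 1, 0.548 without celastrol replicate 2 and 0.203 without sham replicate 2.

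Psmb9 stood at 0.713% ± 0.199 of Psmb6 in sham, 1.03% ± 0.459 in tMCAO and 0.443% ± 0.0612 with celastrol (SD, n = 3 each). Every celastrol ratio (0.498%, 0.453% and 0.377%) was below every ratio of the other two groups (exact permutation p 0.1, adjusted 0.3, against each). Psmb9 was below the minimum for testing, with 0.520 to 2.12 CPM per library, overlaps Tap1 on the other strand, and its difference between tMCAO and sham changed sign when 1 was added to each FPKM. Psmb10 was a far larger share of its counterpart, at 30.3% ± 4.58, 30.7% ± 7.24 and 28.3% ± 4.66 (SD, n = 3 each), with overlapping groups. Psmb10 itself had log2 fold changes of 0.17 ± 0.20 in tMCAO against sham, −0.25 ± 0.20 in celastrol against tMCAO (−0.027 without tMCAO replicate 1) and −0.08 ± 0.20 in celastrol against sham (edgeR adjusted p 0.738, 0.976 and 0.940).

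**Figure D5:**
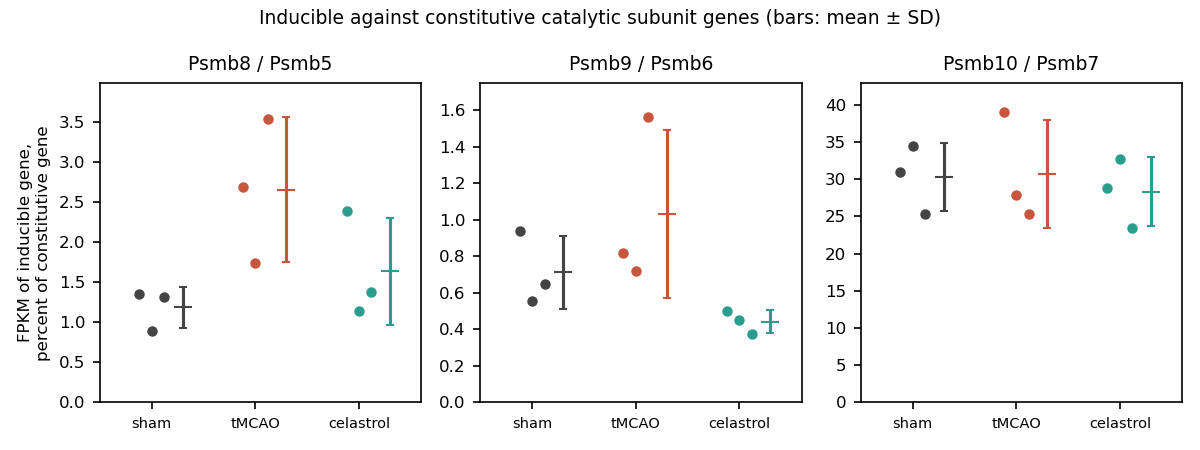
FPKM of each inducible catalytic subunit gene as a percent of the constitutive gene it replaces (panels; axes start at 0) in the 3 libraries of each group, with mean ± SD. Psmb8 to Psmb5 is higher in all tMCAO than in all sham libraries, Psmb9 to Psmb6 is lowest in the celastrol libraries, and Psmb10 to Psmb7 stays near 30% with overlapping groups.

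Genes around the proteasome were described by lists. Of 12 interferon response genes all 12 were positive in tMCAO against sham (median log2 fold change 0.84), 6 of them at an unadjusted p under 0.05, 10 were negative in celastrol against tMCAO (median −0.65), and 0 passed edgeR's adjusted test. Irgm1, an interferon-induced GTPase, had 9.80, 10.3 and 8.63 CPM in sham, 35.1, 17.5 and 21.5 CPM in tMCAO, and 22.3, 13.5 and 11.5 CPM with celastrol. Its log2 fold change was 1.37 ± 0.31 in tMCAO against sham (adjusted p 0.143). Tap1, the peptide transporter that carries proteasome products to antigen presentation, had a log2 fold change of 1.45 ± 0.39 (adjusted p 0.190). DESeq2 gave adjusted p-values of 0.00266 for Irgm1, 0.0157 for Irf1, an interferon-induced transcription factor, and 0.0163 for Tap1. Psme2, the member with the largest estimate in that comparison, is itself an interferon target, and its 0.47 was below the median of this list. In celastrol against tMCAO the estimates were −0.65 ± 0.31 for Irgm1 (−0.308 without tMCAO replicate 1), −1.37 ± 0.61 for Gbp2 (−0.716 without that library) and −0.98 ± 0.39 for Ifit3 (adjusted p 0.976 for each). In celastrol against sham they were 0.77 ± 0.28 for Irf1, 0.72 ± 0.31 for Irgm1 and 0.79 ± 0.39 for Tap1 (adjusted p 0.483, 0.565 and 0.625), and 0.419, 0.383 and 0.467 without celastrol replicate 1. Markers of macrophages and activated microglia were higher in the same comparisons with sham, as given above.

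The 16 tested partners of the proteasome that carry other names (Paaf1 was not analysed here) had a median of −0.02 in tMCAO against sham, with 7 positive. Sem1, a small cap subunit, lay with the members: it had 27.5, 25.5 and 27.4 CPM in sham and 31.4, 31.7 and 33.0 CPM in tMCAO (log2 fold change 0.26 ± 0.11, edgeR adjusted p 0.323), then 28.3, 24.8 and 29.8 CPM with celastrol (−0.21 ± 0.11 against tMCAO, adjusted p 0.976; −0.142 without celastrol replicate 2). Ubqln4, a shuttle that brings ubiquitinated proteins to the cap, was opposite, at 139.8, 173 and 160.1 CPM in sham and 108, 111 and 110.2 CPM in tMCAO, without overlap (−0.52 ± 0.14, adjusted p 0.190 by edgeR and 0.0349 by DESeq2). Txnl1, a redox protein bound to the cap, had 72.0 ± 6.24 and 84.8 ± 4.62 CPM (SD, n = 3 each; 0.24 ± 0.11, adjusted p 0.349). In celastrol against tMCAO the estimates were 0.19 ± 0.14 for Ubqln4 and 0.10 ± 0.09 for its relative Ubqln1 (adjusted p 0.976 for each), and 0.021 and 0.163 without celastrol replicate 2. In celastrol against sham they were −0.33 ± 0.14 for Ubqln4, −0.25 ± 0.12 for Akirin2, which carries proteasomes into the nucleus, and −0.16 ± 0.11 for Usp14, a deubiquitinase bound to the cap (edgeR adjusted p 0.573, 0.596 and 0.745).

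Among 9 genes that control the proteasome genes or deliver substrates, Nfe2l2, a factor of the oxidative stress response, had 18.8, 15.8 and 19.9 CPM in sham, 32.4, 30.6 and 34.7 CPM in tMCAO, and 38.5, 23.2 and 25.4 CPM with celastrol. It was above sham in every library of both groups, with log2 fold changes of 0.84 ± 0.20 (edgeR adjusted p 0.143, DESeq2 adjusted p 0.00761) and 0.68 ± 0.20 (edgeR adjusted p 0.359; 0.414 without celastrol replicate 1). Ufd1, a cofactor of the segregase that extracts substrates, had 39.2, 52.2 and 37.0 CPM in sham, 104, 58.9 and 53.8 CPM in tMCAO and 43.5, 43.7 and 44.2 CPM with celastrol. Its highest value was in tMCAO replicate 1, and its estimates were 0.76 ± 0.25 against sham and −0.73 ± 0.25 for celastrol against tMCAO (adjusted p 0.233 and 0.976). Without that library they were 0.396 and −0.365. Sel1l, of the pathway that returns misfolded proteins from the endoplasmic reticulum, was lower in tMCAO than in sham in every library (253, 271 and 267 against 209, 210.0 and 228 CPM; −0.29 ± 0.10, adjusted p 0.263). With celastrol it stood at 230, 278 and 236 CPM (0.20 ± 0.10 against tMCAO, adjusted p 0.976; 0.109 without celastrol replicate 2). Syvn1, the ligase of that pathway, had estimates of 0.16 ± 0.10 against tMCAO and 0.10 ± 0.10 against sham with celastrol, and Nploc4, the partner of Ufd1, 0.27 ± 0.13 against sham (adjusted p 0.976, 0.857 and 0.632), which was 0.137 without celastrol replicate 1.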

How the data were processed

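The authors deposited 1 table that holds, for every gene in every library, an estimated count (a whole number) and an FPKM value. The tools named in the submitters' processing notes are StringTie 1.3.4d, HISAT2 2.0.4, cutadapt 1.9, DESeq2 and edgeR, and the build is mm10; the sources used here do not state settings or strand use. The lowest deposited FPKM, 1e-06, stands for 0. Per the labels' protocols, RNA was depleted of ribosomal RNA.

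The members, gene lists and tests were chosen with earlier results of these data known. Genes with at least 0.5 FPKM in at least 3 libraries (16982) entered 1 edgeR quasi-likelihood fit of all 9 libraries with TMM scaling (edgeR 4.0.16, R 4.3.3, two-sided), with Benjamini-Hochberg adjustment over all of them; the rule for a call was an adjusted p under 0.05. SE is the log2 fold change over the square root of F. The script was tested on simulated data. Alternatives were DESeq2 1.42.0, limma 3.58.1 on log2(FPKM + 0.5), other scalings and filters, and leaving out each library. Every pair of libraries differed beyond sampling noise (lowest chi-square over its degrees of freedom 72.5). Same-numbered libraries did not deviate together (r from −0.156 to 0.198), so numbers were not used as pairs.

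Named were, per comparison, up to 12 members by smallest p and the extremes of each role; from each other list, the 3 with the smallest p (some by estimate alone), and Psmb8, Psmb9 and Psmb10. Others are named as counts required. Some further members are given outside this rule, among them Psmb7, Psmd1, Psme1 and Psmf1 in tMCAO against sham. Results of 1 further list are not reported here, apart from a change of sign of 1 gene. Copies were found with blastn against GENCODE M21 transcripts. Coordinates are those of the deposited table.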

Additional observations from a re-analysis of the deposited data

How the results depend on the processing

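No member passed an adjusted p of 0.05 under any alternative run (DESeq2, limma, the scalings, filters and fits below, and each fit without 1 library). The counts at an unadjusted p under 0.05 and the non-overlap counts did depend on the setting. In tMCAO against sham, 15 members were higher with library totals alone, 14, 13 and 14 with limma on log2(FPKM + 0.5, 0.1 or 1) and 3 with no filter, against 6 (12.2% of all genes with library totals, 11.5%, 11.6% and 11.4% with limma and 5.69% with no filter, against 8.56%); their median was 0.233 with library totals and 0.215, 0.22 and 0.211 with limma, against 0.128, while that of all genes moved as well. Non-overlapping members were 29 higher and 0 lower with library totals, and 27 and 0 in the deposited FPKM (19.3% and 5.95%, and 18.8% and 6.20%, of all genes). In celastrol against tMCAO the lower count was 1 with library totals, with no filter, with the replicate block, with only the 2 groups compared and with copies added. In those settings 1.42% to 2.39% of all genes were lower. The non-overlapping higher count was 0 with library totals and in FPKM (2.73% and 2.71% of all genes). In celastrol against sham the lower count was 0 with library totals and with limma at all 3 pseudocounts (1.88% to 2.16% of all genes were lower). The median was 0.104 with library totals. Without overlap, 1 member was lower with library totals and in FPKM (4.09% and 4.24% of all genes).

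The replicate block treats same-numbered libraries as pairs although the labels do not say so. With it, 4 members were higher in tMCAO against sham (8.76% of all genes were), and the median of the members was 0.125. The lower count in celastrol against tMCAO was 1, as above, and no other count moved by over 1.5 times. Adding 1 to FPKM turned the log2 difference of the Psmb9 to Psmb6 ratio in tMCAO against sham to −0.116 and that of Psmb10 to Psmb7 to −0.011.

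Leaving out 1 library at a time gave these ranges. The median lay from 0.113 to 0.165 in tMCAO against sham, −0.141 to −0.034 in celastrol against tMCAO and 0.016 to 0.077 in celastrol against sham. Higher counts lay from 0 to 6, 0 to 1 and 0 to 5, and lower counts from 0 to 0, 1 to 2 and 0 to 1. Non-overlapping higher counts lay from 17 to 26, 1 to 4 and 3 to 17, and lower ones from 1 to 3, 5 to 14 and 2 to 4; fewer libraries overlap less often, and the shares of all genes were higher too. The Psmb10 to Psmb7 difference lay from −0.177 to 0.132, −0.231 to 0.078 and −0.22 to 0.032.

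Small estimates changed sign. In tMCAO against sham with library totals they became 0.005 for Psmb5, 0.011 for Psmc5, 0.011 for Psmd8 and 0.035 for Psmg2. With limma at pseudocounts 0.5, 0.1 and 1 they became 0.006, 0.006 and 0.006 for Psmc5, 0.028, 0.03 and 0.026 for Psmg2, and 0.007, 0.01 and 0.004 for Psme2b, which was 0.298 with copies added. In celastrol against tMCAO, Psmb5, Psmc1 and Uba1 became −0.037, −0.011 and −0.015 with library totals, and −0.033, −0.016 and −0.019 with limma at each pseudocount. Without 1 library in turn, estimates lay from −0.006 to 0.066 for Psma5, −0.206 to 0.007 for Psmd8, −0.349 to 0.126 for Psme2b, −0.256 to 0.401 for Psmc3ip and −0.055 to 0.281 for Psmb10 in tMCAO against sham. In celastrol against tMCAO they lay from −0.065 to 0.05 for Psmb5, −0.004 to 0.077 for Psmc1, −0.493 to 0.166 for Psmc3ip and −0.038 to 0.078 for Uba1, and in celastrol against sham from −0.359 to 0.074 for Psmg4, −0.363 to 0.077 for Psmc3ip and −0.211 to 0.026 for Psmb10. The causes were not tested. Depth gave each tested member at least 90 counts per library, and 3 libraries a group limit the precision of every comparison.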

Other observations

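Nfe2l1, the factor that induces proteasome genes together, had 371, 80.2 and 419 CPM in sham, 72.9, 367 and 79.4 CPM in tMCAO, and 415, 420 and 74.8 CPM with celastrol. Its libraries fell into a low and a high level, with 4 libraries low and 5 high, and each group held both. The part that the assignment of reads to transcripts has in these levels was not tested, and the values are not read as expression. Nfe2l1 was picked after its values were seen.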
